A study of Homo sapiens with 9 samples.

Results

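The SFN libraries of hypoxic SW480 cells, a human colorectal cancer line, were compared with the untreated hypoxic libraries. SFN is sulforaphane, and the comparison takes 3 libraries of each group, 6 of the 9 poly(A) RNA-seq libraries analysed. The members were taken from the labels: the 3 libraries labelled as hypoxia with SFN against the 3 labelled as untreated hypoxia. Every group of the study was held at 1% O2 for 48 h. The SFN group received SFN at 25 µM, and the 48 h also stand as the treatment time, so how long the drug was on the cells before or during hypoxia is not certain. The remaining 3 libraries came from cells given SFN together with 5-fluorouracil, a pyrimidine analogue that blocks thymidylate synthase (SFN+5-FU). Neither dose of that pair is given in the sources used here. They entered the fit and are not described for their own sake. Replicates are biological according to the series design, all from 1 cell line, and the libraries analysed hold no normoxic cells.

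Sulforaphane is an isothiocyanate released from cruciferous vegetables. It reacts with cysteines of KEAP1, the adaptor that marks the transcription factor NRF2 for degradation, and NRF2 then drives genes of thioredoxin, glutathione, NADPH and quinone metabolism. Cells short of oxygen hold the transcription factor HIF-1, which drives glucose uptake, glycolysis and angiogenic factors, and the study's title names HIF-1α beside PI3K, AKT and mTOR.

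Expression was deposited as FPKM, fragments scaled to transcript length and library size, so levels can be set beside each other between genes. The tested genes were the 12662 of 41041 with a mean of at least 1 FPKM over the 9 libraries. Changes are differences in log2(FPKM + 1), SFN minus control, given with their SE, and this scale understates the change of genes at a few FPKM. A gene is said to rise or fall where limma, fitted over all 9 libraries, gave a Benjamini-Hochberg adjusted p below 0.05. Changes are given beside their value in the fit without SFN replicate 2, called the 8-library fit. Values listed as 3 numbers are FPKM in replicates 1, 2 and 3. Summed FPKM ran from 259184 to 272235 per library, and how many fragments lie behind them is unknown. Genes at 1 FPKM or more numbered 12755 to 12792 in the control libraries and 12371 to 12529 in the SFN libraries. Mitochondrially encoded transcripts took 25.2% to 26.2% of the summed FPKM in control, 23.9%, 20.04% and 22.7% in SFN replicates 1, 2 and 3, and 17.3% to 19.7% with SFN+5-FU.

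The library labelled SFN replicate 2 stood apart from the other SFN libraries. Its median absolute difference per gene was 0.25 and 0.22 on the log2 scale from SFN replicates 1 and 3, against 0.12 between those replicates, and 0.06 to 0.08 from the SFN+5-FU libraries. The SFN+5-FU libraries lay 0.07 to 0.09 from each other, so SFN replicate 2 was as near to them as they were to one another. The median absolute difference of SFN replicate 2 from the control libraries was 0.36 to 0.40. The library keeps its label here, and most results are given with and without it. Markers of the labelled cell type were mostly present: 9 of 10 colon epithelial markers reached 1 FPKM in at least 1 of the 6 libraries, with EPCAM at 122 to 144 FPKM and KRT18 at 650 to 936 FPKM. The intestinal cadherin CDH17 did not exceed 0.59 FPKM and KRT20 did not exceed 1.39 FPKM. Summed over the 10 markers, control libraries held 2555 to 2598 FPKM and SFN libraries 1771 to 2385 FPKM. Among markers of other cells, COL1A1 was the 1 fibroblast marker of 7 above 1 FPKM, no endothelial marker of 5 reached it with CDH5 at 0 in all 6 libraries, and the leukocyte marker PTPRC was at 0 throughout. The leukocyte markers summed to 4.92 to 5.46 FPKM in control and 5.48 to 10.7 FPKM with SFN, most of the difference lying in CD68, a lysosomal protein singled out after its values were seen, at 0.60, 0.61 and 0.48 FPKM in control and 2.05, 5.57 and 4.23 FPKM with SFN. In such bulk libraries, fewer cells of a kind and less RNA per cell cannot be told apart.

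Levels differed between SFN and control for 6333 of the 12662 tested genes (50.0%), with 3478 higher (27.5%) and 2855 lower (22.5%). Without SFN replicate 2 the same model called 7200 genes (56.9%), 3798 higher (30.0%) and 3402 lower (26.9%), and the median SE was 0.08 against 0.10 with it. The calls shared by both fits, in the same direction, numbered 6003, while 330 were made only with all libraries, 1197 only without SFN replicate 2 and none in opposite directions. The shared calls made up 47.4% of the tested genes, 25.8% higher and 21.6% lower. SFN replicate 2 lay further from control than both other SFN libraries, in the called direction, for 3604 of the 6333 called genes (56.9%). Changes of at least 2-fold on the log2 scale were more often decreases: 593 called genes (4.68%) were of that size, of which 398 fell (3.14%) and 195 rose (1.54%). In the 8-library fit they were 351 lower (2.77%) and 163 higher (1.29%) of 514 (4.06%). The control and SFN libraries did not overlap for 7274 genes (57.4%), 4001 of them higher (31.6%) and 3273 lower (25.8%) with SFN. At 4-fold or more, called with and without that library, 8 genes rose and 22 fell. The median change over all tested genes was 0.05, and 0.02 without SFN replicate 2, and the shares called here are the background for every gene group that follows. With FPKM values scaled by median ratios between libraries, or with mitochondrial transcripts left out, 47.4% and 46.5% of the called genes were higher, against 54.9% on the values as deposited.

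**Figure D1:**
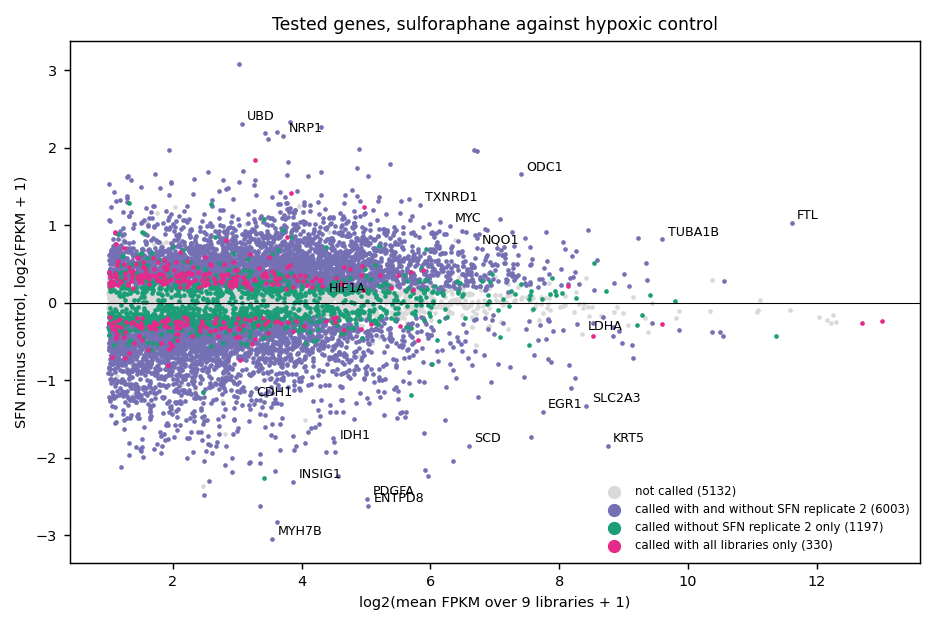
Each point is 1 of the 12662 tested genes, placed by its level (log2 of the mean FPKM over 9 libraries plus 1) and its SFN minus control difference on the log2(FPKM + 1) scale. Colours separate the 6003 genes called with and without SFN replicate 2, the 330 and 1197 called in only 1 of the fits, and genes called in neither. Among genes with a change of at least 4-fold and called in both fits, 22 lie below and 8 above. Several of the named decreases of less than 4-fold (KRT5, SLC2A3, EGR1, SCD) are abundant transcripts.

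The gene groups below are 54 lists of known members with 860 distinct tested genes, and each is described by its calls and its median change. Genes of ribosome assembly, NF-kB, mitochondrial translation and DNA replication had the highest medians with all libraries. The proteasome list, at 0.40, lay below the cytokine (0.52), DNA repair (0.47) and EGF family (0.43) lists. Genes of sterol synthesis, Wnt feedback, immediate early factors and hypoxia lay at the lower end.

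**Figure D2:**
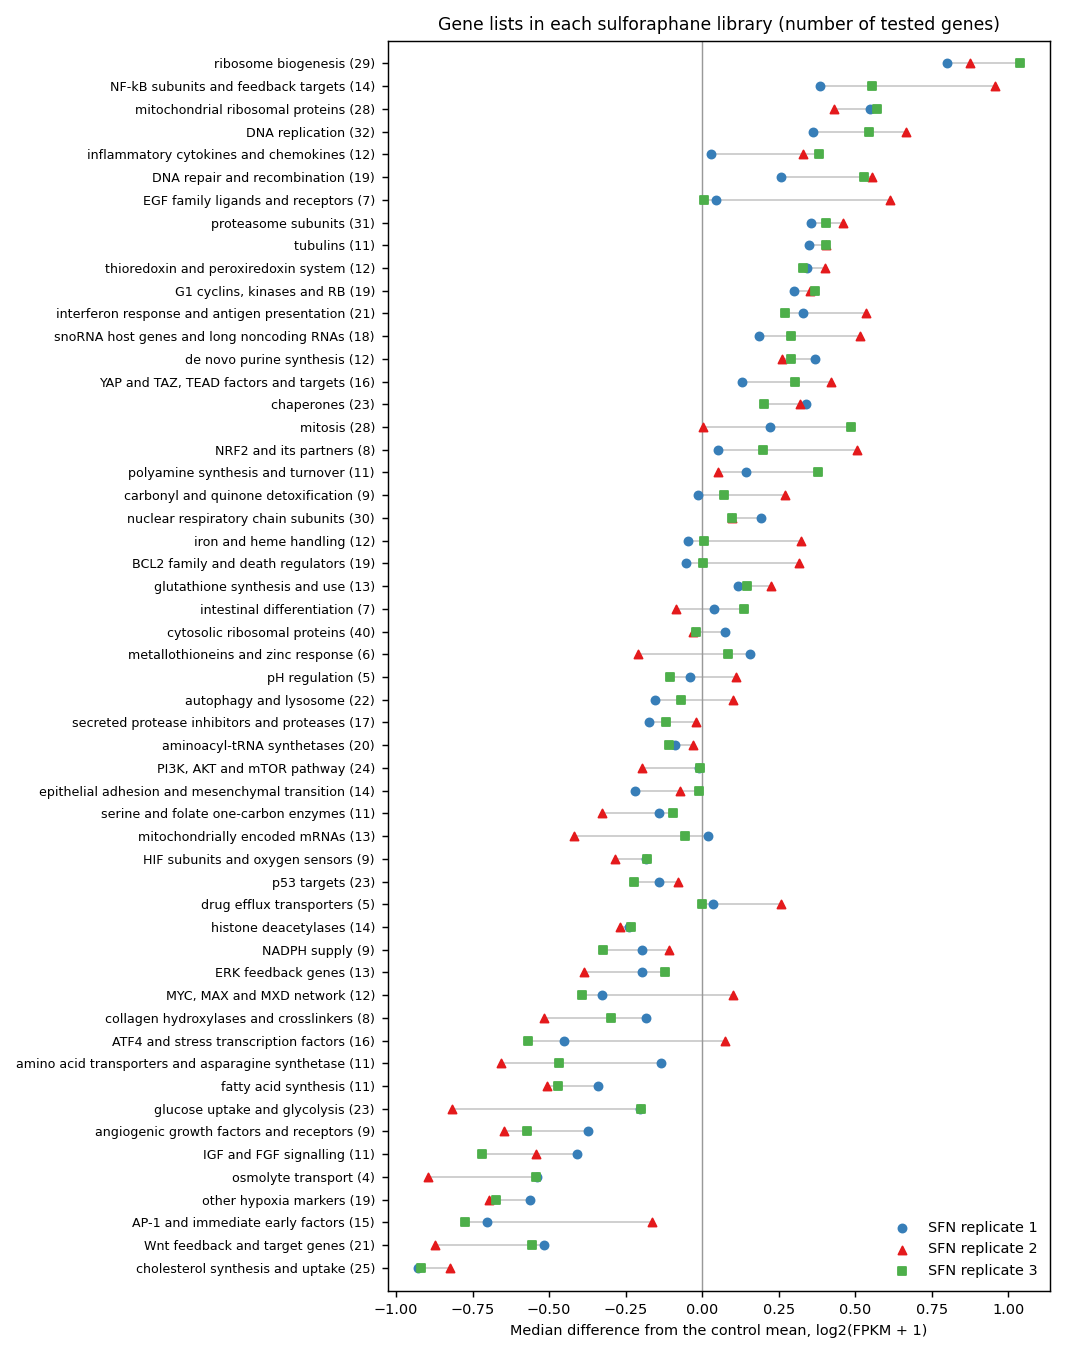
Median difference of each gene list from the control mean, in log2(FPKM + 1), for SFN replicates 1 (circles), 2 (triangles) and 3 (squares), with the number of tested genes in brackets. In SFN replicates 1 and 3 cholesterol synthesis had the lowest median and ribosome biogenesis the highest, whereas in SFN replicate 2 osmolyte transport was lowest and the NF-kB list highest. SFN replicate 2 parted most from the others in the AP-1, ATF4, glycolysis and EGF family lists.

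The redox genes held some of the larger increases, chiefly in the thioredoxin system, which passes electrons from NADPH to peroxiredoxins and other proteins. Of its 12 tested genes 8 rose (66.7%) and none fell, with a median of 0.37 (0.34 without SFN replicate 2). TXNRD1, the cytosolic thioredoxin reductase, was at 23.5, 24.6 and 27.3 FPKM in control and 46.3, 77.3 and 65.6 FPKM with SFN. It rose with no overlap between the groups (1.27 ± 0.16, adjusted p = 0.000242, and 1.11 in the 8-library fit). TXN, thioredoxin itself, was among the most abundant of these genes at 198, 200.03 and 223 FPKM in control and 382, 409 and 399 FPKM with SFN, and nearly doubled. TXN rose by 0.94 ± 0.071 (adjusted p = 2.46e-05), or 0.91 in the 8-library fit. PRDX4, the peroxiredoxin of the endoplasmic reticulum, rose less (0.57 ± 0.056, adjusted p = 8.79e-05, and 0.54 in the 8-library fit). One stretch of the TXNRD1 promoter is printed here because it holds the motif TGACNNNGC, the core of the antioxidant response element that NRF2 binds with small MAF proteins. It lies at chr12:104215650-104215718 on the plus strand (RefSeq, GRCh38.p14), with the motif in capitals 91 bases before a RefSeq transcript start:
TXNRD1: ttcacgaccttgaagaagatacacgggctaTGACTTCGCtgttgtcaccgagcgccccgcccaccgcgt
Of the 9 thioredoxin genes with a promoter window (300 bases, 250 before to 50 after a start, both strands searched), 1 (11.1%) held this motif, against 19.7% of the 9236 tested genes with a window and 13.3% of all 35116 windows.

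NRF2's own pathway members moved less evenly. KEAP1, the NRF2 inhibitor, was at 16.1, 15.7 and 17.3 FPKM in control and 23.9, 35.2 and 25.6 FPKM with SFN, so that SFN replicate 2 was the highest library. The rise in KEAP1 was 0.73 ± 0.12 (adjusted p = 0.00127, 8-library fit 0.57). SQSTM1, the autophagy adaptor that binds KEAP1, also rose (0.51 ± 0.12, adjusted p = 0.00568, and 0.36 in the 8-library fit). NFE2L2, which encodes NRF2, was at 5.15, 4.36 and 5.16 FPKM in control and 4.32, 8.54 and 5.07 FPKM with SFN, and its groups overlapped (adjusted p = 0.392). Its change was 0.20 with all libraries and -0.05 without SFN replicate 2. Of the 8 genes in the list 2 rose (25%) and 1, MAFG, fell (12.5%), against 27.5% and 22.5% of all tested genes. MAFG changed by -0.37 ± 0.11 (adjusted p = 0.0238), with -0.51 in the 8-library fit. The fall of MAFG, a small MAF protein that pairs with NRF2, lost its call in 4 leave-out fits: without control replicate 1, control replicate 2, SFN replicate 1 or SFN replicate 3 its adjusted p was 0.071, 0.0803, 0.0681 and 0.0771.

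Classical NRF2 targets split. NQO1, the quinone reductase often used to read NRF2 activity, was at 67.0, 71.3 and 65.5 FPKM in control and 104, 124 and 108 FPKM with SFN, with every SFN library above every control. For NQO1 the change was 0.71 ± 0.081 (adjusted p = 0.000166) and 0.64 in the 8-library fit. HMOX1, the heme oxygenase, was at 7.49, 7.50 and 6.74 FPKM in control and 6.58, 10.5 and 6.76 FPKM with SFN and did not pass the test (change 0.09, adjusted p = 0.616, and -0.10 without SFN replicate 2). GCLM, a subunit of the enzyme that starts glutathione synthesis, was at 6.20, 5.44 and 6.97 FPKM in control and 6.78, 15.0 and 8.54 FPKM with SFN, with only SFN replicate 2 far above the controls (change 0.56, adjusted p = 0.059, and 0.26, adjusted p = 0.0625, without that library; without SFN replicate 1 its change of 0.78 was called, adjusted p = 0.00972). Over the glutathione list 4 of 13 tested genes rose (30.8%) and 2 fell (15.4%), against 27.5% and 22.5% of all tested genes. Without SFN replicate 2, 6 rose and 3 fell. GPX1, the selenium-dependent glutathione peroxidase of the cytosol, was at 207, 208 and 214 FPKM in control and 329, 360.3 and 316 FPKM with SFN. GPX1 rose by 0.67 ± 0.066 (adjusted p = 8.44e-05), or 0.62 in the 8-library fit. MGST3, a membrane-bound glutathione transferase, fell (-0.52 ± 0.074, adjusted p = 0.000471, and -0.58 in the 8-library fit). Among 9 tested carbonyl and quinone detoxification genes 3 rose (33.3%) and none fell, against 27.5% and 22.5% of all tested genes. Without SFN replicate 2, 3 rose and 2 fell.

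NADPH-supplying enzymes moved in both directions: of 9 tested genes 3 rose and 5 fell, in both fits. IDH1, the cytosolic isocitrate dehydrogenase and an NADPH source, was at 41.7, 42.2 and 44.5 FPKM in control and 13.1, 11.02 and 10.8 FPKM with SFN, the largest change of the list. The fall in IDH1 was -1.80 ± 0.079 (adjusted p = 3.43e-06, 8-library fit -1.76). In iron handling, FTL, the ferritin light chain, showed the largest gain in FPKM of all tested genes, at 1649, 1623 and 1623 FPKM in control and 2979, 4068 and 3079 FPKM with SFN. For FTL the change was 1.03 ± 0.11 (adjusted p = 0.000147) and 0.89 in the 8-library fit. FTL has processed copies in the genome, and how reads were shared among them is not known. TFRC, the transferrin receptor that brings iron in, was at 10.8, 10.5 and 13.1 FPKM in control and 30.1, 29.2 and 36.0 FPKM with SFN. TFRC rose by 1.39 ± 0.11 (adjusted p = 3.30e-05), or 1.45 in the 8-library fit. BLVRA, biliverdin reductase, fell (-0.62 ± 0.057, adjusted p = 5.56e-05, and -0.62 in the 8-library fit). Over the iron and heme list 3 of 12 tested genes rose (25%) and 2 fell (16.7%), against 27.5% and 22.5% of all tested genes. The 8-library fit gave the same counts, and 4 fell after correction for GC content and length.

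**Figure D3:**
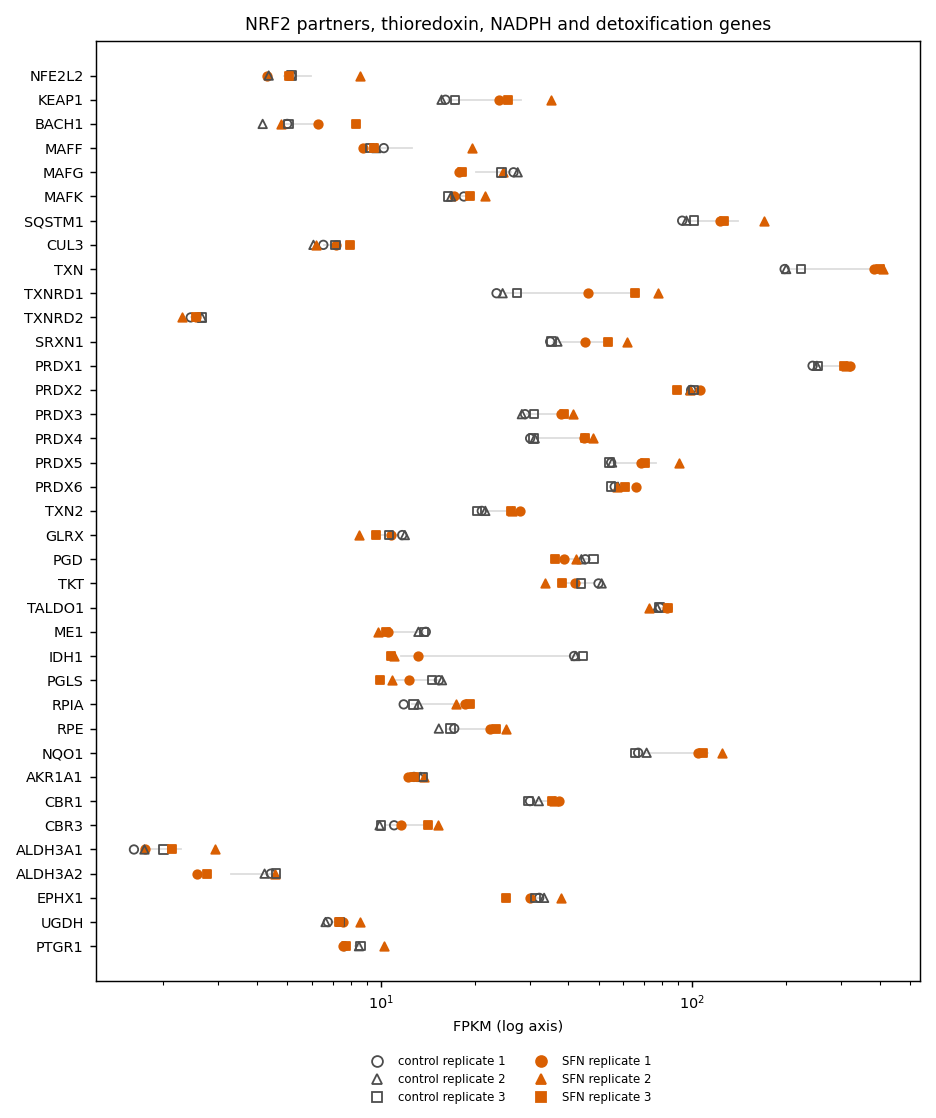
FPKM on a log axis of tested genes of the NRF2, thioredoxin, NADPH and detoxification lists, with open grey symbols for control and filled orange symbols for SFN replicates 1 (circles), 2 (triangles) and 3 (squares). The lines join group means: TXN, TXNRD1 and NQO1 lie to the right of control in all 3 SFN libraries, IDH1 lies far to the left, and NFE2L2 is high in SFN replicate 2 alone.

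The sterol genes had the lowest median change of the 54 lists, with and without SFN replicate 2. Of 25 tested genes of cholesterol synthesis and uptake, 21 fell (84%, against 22.5% of all tested genes) and none rose. Their median change was -0.89, and without SFN replicate 2 it was -0.92 with 22 genes lower. INSIG1, the sterol sensor that retains the SREBP proteins in the endoplasmic reticulum, was at 29.6, 28.4 and 35.2 FPKM in control and 5.32, 4.95 and 6.13 FPKM with SFN. The fall in INSIG1 was -2.31 ± 0.10 (adjusted p = 3.31e-06, 8-library fit -2.25). Both groups were tight for INSIG1 and far apart. SREBF2, which encodes the transcription factor SREBP-2 that drives this pathway, was at 34.5, 35.5 and 34.7 FPKM in control and 12.3, 7.93 and 12.9 FPKM with SFN. For SREBF2 the change was -1.60 ± 0.15 (adjusted p = 5.64e-05) and -1.40 in the 8-library fit. IDI1, an isopentenyl diphosphate isomerase of the list, had no call and was singled out after its values were seen. SFN replicate 2 lay above SFN replicates 1 and 3 for IDI1, at 7.45, 7.71 and 11.2 FPKM in control and 4.30, 8.17 and 5.02 FPKM with SFN, and IDI1 was called lower without it.

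Fatty acid synthesis was lower too, with 7 of 11 tested genes lower and 1 higher, at a median of -0.42. Without SFN replicate 2, 6 were lower and 1 higher, at a median of -0.38. SCD, the stearoyl-CoA desaturase, was at 186, 186 and 207 FPKM in control and 59.1, 47.4 and 53.4 FPKM with SFN. SCD fell by 1.84 ± 0.084 (adjusted p = 3.72e-06), with -1.76 in the 8-library fit. ACSS2, which makes acetyl-CoA from acetate, was at 34.1, 32.4 and 33.9 FPKM in control and 14.0, 11.2 and 9.83 FPKM with SFN. The fall in ACSS2 was -1.46 ± 0.11 (adjusted p = 2.23e-05, 8-library fit -1.44). FADS2, the delta-6 fatty acid desaturase, fell by about 1 on this scale (-1.01 ± 0.10, adjusted p = 0.000105, and -0.90 in the 8-library fit). SREBP-driven genes can carry sterol regulatory elements, and TCACNCNAC, a core of that element, was searched for in the promoter windows. It was found for 3 of the 18 cholesterol genes with a window (16.7%), against 3.29% of tested genes and 2.55% of all windows. Those 3 stretches are printed with the motif in capitals, all on the plus strand of GRCh38.p14 (RefSeq): FDPS, farnesyl diphosphate synthase, at chr1:155308696-155308764, HSD17B7, a 3-keto-steroid reductase, at chr1:162790574-162790642, and SREBF2 at chr22:41832942-41833010, with the motif 132, 90 and 125 bases before a transcript start.
FDPS: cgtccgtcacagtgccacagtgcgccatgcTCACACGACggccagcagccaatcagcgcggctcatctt
HSD17B7: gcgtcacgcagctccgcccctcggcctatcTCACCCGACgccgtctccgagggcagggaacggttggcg
SREBF2: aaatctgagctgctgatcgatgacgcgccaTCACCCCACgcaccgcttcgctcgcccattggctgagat
These matches describe letters in the reference and not sites shown to be bound.

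More hypoxia-linked transcripts fell than rose with SFN, with both groups held at 1% O2. HIF1A, the oxygen-regulated subunit of HIF-1, was at 18.5, 16.9 and 19.3 FPKM in control and 18.3, 19.1 and 21.2 FPKM with SFN, with overlapping groups (change 0.10, adjusted p = 0.397, and 0.11 in the 8-library fit). EPAS1, which encodes the related HIF-2α, was at 80.3, 79.2 and 74.1 FPKM in control and 56.6, 21.2 and 45.4 FPKM with SFN, each SFN library below each control. For EPAS1 the change was -1.01 ± 0.28 (adjusted p = 0.0148) and -0.61 in the 8-library fit. SFN replicate 2 held the lowest EPAS1 level. EGLN3, an oxygen-sensing prolyl hydroxylase that is itself a hypoxia marker, was at 21.2, 21.9 and 18.5 FPKM in control and 9.55, 2.71 and 7.99 FPKM with SFN. EGLN3 fell by 1.61 ± 0.32 (adjusted p = 0.00314), with -1.14 in the 8-library fit. Of the 9 tested HIF subunits and sensors 4 fell and none rose, and 5 fell without SFN replicate 2.

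Glucose uptake and glycolysis depended on SFN replicate 2 in size. Of 23 tested genes 11 fell and none rose with all libraries, at a median of -0.45. Without that library 12 fell and 2 rose, at a median of -0.19; its own median was -0.82, and those of replicates 1 and 3 were -0.20 and -0.20. ALDOC, a fructose-bisphosphate aldolase, was at 19.8, 19.3 and 16.4 FPKM in control and 4.25, 3.18 and 3.63 FPKM with SFN, a change shared by all 3 SFN libraries. The fall in ALDOC was -2.06 ± 0.11 (adjusted p = 7.05e-06, 8-library fit -1.98). SLC2A3, the glucose transporter GLUT3, was at 588, 622 and 551 FPKM in control and 248, 213 and 239 FPKM with SFN. For SLC2A3 the change was -1.33 ± 0.075 (adjusted p = 8.69e-06) and -1.27 in the 8-library fit. SLC2A1, the transporter GLUT1, was at 499, 509.5 and 451 FPKM in control and 283, 164 and 253 FPKM with SFN. SLC2A1 fell by 1.09 ± 0.17 (adjusted p = 0.000775), with -0.86 in the 8-library fit. PFKFB4, which makes the allosteric activator of phosphofructokinase, fell (-1.35 ± 0.18, adjusted p = 0.000364, and -1.12 in the 8-library fit). LDHA, lactate dehydrogenase A, was at 443, 451 and 421 FPKM in control and 429, 200.5 and 423 FPKM with SFN, so that SFN replicates 1 and 3 lay inside the control range and only SFN replicate 2 was low (change -0.40, adjusted p = 0.2, and -0.04 without it). The short motif ACGTG or GCGTG, the core to which HIF binds, stood in 20 of the 21 glycolysis genes with a window (95.2%), against 71.0% of tested genes and 48.4% of all windows. The ribosome biogenesis list, described further on, held it in 22 of 23 genes (95.7%), so the letters did not set the glycolysis list apart. Genes with several windows count once, which raises the share over genes above that over windows. One match of ALDOC, the gene with the largest fall named from the list, is printed with the letters in capitals, at chr17:28577100-28577145 on the minus strand (GRCh38.p14, RefSeq), 235 bases before a start.
ALDOC: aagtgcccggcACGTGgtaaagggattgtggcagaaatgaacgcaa

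Angiogenic factors, collagen hydroxylases and other hypoxia markers fell more often than they rose in both fits, while pH regulation genes did not. Among angiogenic factors and receptors 6 of 9 tested genes fell and 2 rose (7 and 2 without SFN replicate 2). VEGFA, the vascular endothelial growth factor, was at 5.19, 5.35 and 5.07 FPKM in control and 2.30, 2.28 and 2.19 FPKM with SFN. The fall in VEGFA was -0.93 ± 0.063 (adjusted p = 1.79e-05, 8-library fit -0.93). PDGFA, a platelet-derived growth factor chain, was at 78.4, 82.8 and 60.8 FPKM in control and 13.8, 10.0 and 12.2 FPKM with SFN. For PDGFA the change was -2.53 ± 0.14 (adjusted p = 8.67e-06) and -2.41 in the 8-library fit. Against them stood NRP1, a co-receptor for VEGF and semaphorins, at 2.76, 2.74 and 2.90 FPKM in control and 15.4, 16.8 and 15.5 FPKM with SFN. NRP1 rose by 2.15 ± 0.065 (adjusted p = 8.83e-07), or 2.11 in the 8-library fit. Of 8 tested collagen hydroxylases and crosslinkers 5 fell and 1 rose in both fits, led by the lysyl oxidase-like enzyme LOXL2 (-1.31 ± 0.19, adjusted p = 0.000539, and -1.08 in the 8-library fit). Of 19 other hypoxia markers 13 fell and 1 rose in both fits, at a median of -0.66 (-0.64 without SFN replicate 2). DDIT4, the hypoxia- and stress-induced inhibitor of mTOR complex 1, was at 135, 152 and 114 FPKM in control and 44.0, 17.2 and 31.4 FPKM with SFN. The fall in DDIT4 was -2.16 ± 0.28 (adjusted p = 0.0003, 8-library fit -1.81). ANKRD37, a small ankyrin-repeat hypoxia marker, fell (-1.73 ± 0.27, adjusted p = 0.000743, and -1.39 in the 8-library fit). CA9, the membrane carbonic anhydrase used to mark hypoxic tumour cells, was at 15.4, 13.8 and 10.44 FPKM in control and 8.94, 5.42 and 8.52 FPKM with SFN, and its fall (-0.73 ± 0.21, adjusted p = 0.0183, and -0.53 in the 8-library fit) lost its call without control replicate 1 (adjusted p = 0.071) or control replicate 2 (adjusted p = 0.0584). The pH regulation list that holds CA9 had 1 higher and 1 lower of 5 tested genes in both fits, at a median of 0.0029 (-0.07 without SFN replicate 2). SLC4A7, a sodium bicarbonate cotransporter, was the higher one with all libraries (0.25 ± 0.092, adjusted p = 0.0497, and 0.26 in the 8-library fit) and was not called without SFN replicate 2 (adjusted p = 0.0508).

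The PI3K, AKT and mTOR list gave a small shift: 8 of 24 tested genes fell (33.3%) and 2 rose (8.33%), at a median of -0.10 (-0.03 without SFN replicate 2, -0.17 and -0.17 without SFN replicates 1 and 3). The count of lower genes was 5 without control replicate 1 or control replicate 2, and that of higher genes was 4 without SFN replicate 1. AKT1, the kinase at the centre of the pathway, was at 26.3, 26.3 and 26.0 FPKM in control and 19.5, 18.9 and 18.1 FPKM with SFN, a small change with no overlap. For AKT1 the change was -0.46 ± 0.058 (adjusted p = 0.000285) and -0.46 in the 8-library fit. MTOR was at 6.09, 5.86 and 5.82 FPKM in control and 6.62, 5.17 and 6.75 FPKM with SFN and overlapped (change 0.05, adjusted p = 0.707, and 0.15, adjusted p = 0.0514, without SFN replicate 2). PIK3CD, a catalytic PI3K subunit, fell (-0.60 ± 0.078, adjusted p = 0.000336, and -0.54 in the 8-library fit). SESN2, a stress-induced sestrin that restrains mTOR complex 1, fell too (-0.60 ± 0.13, adjusted p = 0.00444, and -0.75 in the 8-library fit). These are transcript levels, and phosphorylation, by which this pathway is switched, was not analysed here.

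MYC and genes of ribosome assembly were higher with SFN. MYC, the growth-promoting transcription factor, was at 46.5, 49.1 and 44.3 FPKM in control and 92.4, 91.8 and 97.1 FPKM with SFN, near double the control in each SFN library. MYC rose by 0.99 ± 0.061 (adjusted p = 1.21e-05), or 1.01 in the 8-library fit. Of 29 tested ribosome biogenesis genes 28 rose (96.6%, against 27.5% of all tested genes) and none fell, in both fits, with a median of 0.90 (0.94 without SFN replicate 2). NOP16, a nucleolar protein, was at 12.9, 14.3 and 14.5 FPKM in control and 33.0, 33.0 and 32.6 FPKM with SFN. The rise in NOP16 was 1.19 ± 0.06 (adjusted p = 6.12e-06, 8-library fit 1.19). RRS1, a factor for large-subunit assembly, was at 11.3, 13.8 and 13.2 FPKM in control and 27.0, 29.8 and 29.9 FPKM with SFN. For RRS1 the change was 1.13 ± 0.089 (adjusted p = 3.08e-05) and 1.10 in the 8-library fit. LYAR, a nucleolar zinc-finger protein, was at 14.9, 13.7 and 17.4 FPKM in control and 30.8, 38.6 and 33.6 FPKM with SFN. LYAR rose by 1.11 ± 0.11 (adjusted p = 8.01e-05), or 1.03 in the 8-library fit. POLR1G, a subunit of RNA polymerase I, which transcribes ribosomal RNA, was at 3.78, 3.85 and 4.14 FPKM in control and 14.5, 19.1 and 15.8 FPKM with SFN, more than a 3-fold increase. The rise in POLR1G was 1.82 ± 0.09 (adjusted p = 7.05e-06, 8-library fit 1.71). UBTF, a polymerase I factor, was the 1 tested gene of the list without a call, with a change of 0.02 (0.01 in the 8-library fit), and is named after its value was seen.

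MYC with its partner MAX binds the E-box CACGTG, which contains the ACGTG searched for above. Of the 23 ribosome biogenesis genes with a promoter window 10 held CACGTG (43.5%), against 12.9% of tested genes and 7.26% of all windows. The other lists searched also lay above the share of tested genes. They held it in 6 of 21 glycolysis genes (28.6%), 2 of 9 thioredoxin genes (22.2%) and 3 of 18 cholesterol genes (16.7%). Of the 10 ribosome biogenesis genes with the E-box, 3 with it wholly before a start are printed, chosen after their values were seen. The E-box is in capitals, on GRCh38.p14 (RefSeq), and lies 59, 5 and 11 bases before a start for LYAR, UTP20 and UTP4. The LYAR stretch is at chr4:4290050-4290115 on the minus strand. That of UTP20, a small-subunit processome protein, is at chr12:101280065-101280104 on the plus strand. That of UTP4, another processome protein, is at chr16:69132603-69132648 on the plus strand. The 3 genes rose, LYAR by 1.11, UTP20 by 0.53 and UTP4 by 1.08 (1.03, 0.74 and 1.00 in the 8-library fit). As 28 of the 29 tested genes of the list rose, these rises do not separate genes with the E-box from genes without it. The matches are letters in the reference, and binding was not tested.
LYAR: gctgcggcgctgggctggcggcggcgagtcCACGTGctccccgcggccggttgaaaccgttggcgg
UTP20: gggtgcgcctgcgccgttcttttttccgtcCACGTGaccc
UTP4: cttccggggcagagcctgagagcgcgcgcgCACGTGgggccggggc

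Within the MYC, MAX and MXD list, MXI1, a repressor that competes with MYC for MAX, fell (-0.85 ± 0.10, adjusted p = 0.000192, and -0.80 in the 8-library fit), and MLXIPL, the glucose-responsive factor ChREBP, was at 5.95, 5.98 and 5.43 FPKM in control and 1.18, 1.07 and 0.95 FPKM with SFN. For MLXIPL the change was -1.72 ± 0.10 (adjusted p = 8.69e-06) and -1.72 in the 8-library fit. The list held 3 higher (25%) and 5 lower (41.7%) of 12 tested genes, against 27.5% and 22.5% of all tested genes. Without SFN replicate 2 it held 3 and 6. The lower genes numbered 3 when any control replicate or SFN replicate 3 was left out, and 3 after correction for GC content and length.

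Genes of mitochondrial translation rose as 1 group. All 28 tested mitochondrial ribosomal protein genes rose in both fits, at a median of 0.56 (0.57 without SFN replicate 2). MRPL15 of the large subunit was at 11.4, 11.7 and 13.6 FPKM in control and 21.3, 24.3 and 21.8 FPKM with SFN (0.83 ± 0.08, adjusted p = 7.44e-05, and 0.77 in the 8-library fit), and MRPS23 of the small subunit at 6.95, 7.26 and 8.30 FPKM in control and 12.8, 12.3 and 13.01 FPKM with SFN. MRPS23 rose by 0.69 ± 0.074 (adjusted p = 0.000128), or 0.71 in the 8-library fit. MRPL1 rose least in SFN replicate 2, at 7.58, 6.96 and 6.79 FPKM in control and 13.8, 9.91 and 14.8 FPKM with SFN. The rise in MRPL1 was 0.75 ± 0.14 (adjusted p = 0.00248, 8-library fit 0.92). Cytosolic ribosomal proteins did not share this. Of 40 tested genes 7 rose and 6 fell (10 and 7 without SFN replicate 2), at a median of 0.02 in both fits. The median turned negative, at -0.05 to -0.07, under median-ratio scaling, quantile normalization, removal of mitochondrial transcripts and correction for GC content and length. It was also negative, at -0.02, without SFN replicate 1, where 10 genes were lower, and 1 gene was lower without control replicate 1 or control replicate 2. Higher genes numbered 3 under median-ratio scaling and 4 under quantile normalization. Nuclear-encoded respiratory chain subunits held 9 higher (30%) and 1 lower (3.33%) of 30 tested, against 27.5% and 22.5% of all tested genes. Without SFN replicate 2, 14 were higher and 1 lower. Under scaling or the GC correction 2 to 4 were lower. NDUFS3, a core subunit of complex I, was at 10.8, 10.8 and 10.8 FPKM in control and 17.4, 18.5 and 16.4 FPKM with SFN. For NDUFS3 the change was 0.64 ± 0.062 (adjusted p = 7.50e-05) and 0.60 in the 8-library fit. Of the 13 mitochondrially encoded mRNAs 2 fell and none rose. Without SFN replicate 2 none fell and 1 rose, none fell without any 1 control library, and 4 fell without SFN replicate 1.

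Small-molecule supply for growth changed unevenly. ODC1, ornithine decarboxylase, the first enzyme of polyamine synthesis, was at 52.7, 56.1 and 62.7 FPKM in control and 148, 239 and 172 FPKM with SFN. ODC1 rose by 1.66 ± 0.15 (adjusted p = 5.55e-05), or 1.47 in the 8-library fit. SRM, spermidine synthase, was at 22.2, 25.0 and 27.0 FPKM in control and 64.0, 64.0 and 63.0 FPKM with SFN, with nearly equal SFN libraries. The rise in SRM was 1.33 ± 0.074 (adjusted p = 8.67e-06, 8-library fit 1.33). SAT1, the acetyltransferase that sends polyamines to breakdown, was at 107, 103 and 94.6 FPKM in control and 61.4, 69.8 and 72.9 FPKM with SFN. For SAT1 the change was -0.57 ± 0.081 (adjusted p = 0.000502) and -0.59 in the 8-library fit. The polyamine list of 11 held 5 higher and 3 lower genes, and 3 higher genes under each scaling, the GC correction, and when any 1 library other than SFN replicate 2 was left out. De novo purine synthesis held 7 higher and none lower of 12 tested (9 and none without SFN replicate 2), among them PRPS1, which makes the ribose donor (0.67 ± 0.073, adjusted p = 0.000139, and 0.61 in the 8-library fit). Serine and folate enzymes held 2 higher and 5 lower of 11 tested in both fits. PSAT1, a serine synthesis enzyme, was at 78.8, 81.7 and 80.7 FPKM in control and 47.4, 30.5 and 40.1 FPKM with SFN. PSAT1 fell by 1.03 ± 0.13 (adjusted p = 0.000305), with -0.87 in the 8-library fit. TYMS, thymidylate synthase, rose most in SFN replicate 2, at 39.4, 38.9 and 45.7 FPKM in control and 54.0, 93.2 and 61.8 FPKM with SFN. The rise in TYMS was 0.70 ± 0.17 (adjusted p = 0.00764, 8-library fit 0.48).

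Proteasome subunits and chaperones rose more often than they fell. Of 31 tested proteasome subunits 26 rose (83.9%) and none fell, at a median of 0.40, and 28 rose without SFN replicate 2 at 0.37. PSMD12, a lid subunit, was at 17.8, 16.8 and 20.6 FPKM in control and 27.0, 35.6 and 33.2 FPKM with SFN (0.76 ± 0.11, adjusted p = 0.00061, and 0.68 in the 8-library fit), and PSMC4, an ATPase of the base, at 50.1, 50.3 and 54.7 FPKM in control and 80.5, 98.7 and 82.7 FPKM with SFN. For PSMC4 the change was 0.74 ± 0.085 (adjusted p = 0.000169) and 0.65 in the 8-library fit. Chaperones held 12 higher and 2 lower of 23 tested (13 and 3 without SFN replicate 2); the lower genes numbered 5 under quantile normalization and 4 with mitochondrial transcripts left out. DNAJA1, an HSP40 co-chaperone, was at 54.3, 53.6 and 59.6 FPKM in control and 91.5, 100.3 and 101 FPKM with SFN. DNAJA1 rose by 0.80 ± 0.069 (adjusted p = 4.49e-05), or 0.78 in the 8-library fit. HSPB8, a small heat-shock protein, went the other way, at 4.18, 3.66 and 3.39 FPKM in control and 0.80, 1.20 and 0.79 FPKM with SFN. The fall in HSPB8 was -1.30 ± 0.12 (adjusted p = 6.33e-05, 8-library fit -1.40). Autophagy and lysosome genes held 6 higher and 6 lower of 22 tested (27.3% each), near the 27.5% and 22.5% of all tested genes. Without SFN replicate 2 the counts were 6 and 8. ULK1, the kinase that starts autophagy, fell (-0.95 ± 0.11, adjusted p = 0.00018, and -1.03 in the 8-library fit).

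In the amino acid transporter and ATF4 lists more genes fell than rose, though under 50% of the members tested in each. ASNS, asparagine synthetase, was at 26.1, 28.4 and 22.4 FPKM in control and 5.70, 8.91 and 5.12 FPKM with SFN. For ASNS the change was -1.84 ± 0.17 (adjusted p = 5.56e-05) and -2.05 in the 8-library fit. TRIB3, a pseudokinase induced by ATF4, was at 40.7, 39.1 and 40.0 FPKM in control and 16.7, 16.3 and 15.7 FPKM with SFN, with nearly equal SFN libraries. TRIB3 fell by 1.25 ± 0.065 (adjusted p = 7.05e-06), with -1.25 in the 8-library fit. GDF15, a stress-induced secreted factor, was at 29.8, 27.9 and 31.0 FPKM in control and 9.48, 9.40 and 7.17 FPKM with SFN. The fall in GDF15 was -1.67 ± 0.13 (adjusted p = 2.46e-05, 8-library fit -1.72). SLC7A5, the leucine transporter LAT1, was at 199.7, 199 and 213 FPKM in control and 136, 62.1 and 118 FPKM with SFN, lowest in SFN replicate 2. For SLC7A5 the change was -1.02 ± 0.23 (adjusted p = 0.00621) and -0.68 in the 8-library fit. Of 11 tested amino acid transporter and ASNS genes 5 fell and none rose, and 5 fell and 1 rose without SFN replicate 2. ATF5, a factor related to ATF4, was 1 of the 3 higher genes of the ATF4 list. It was at 4.72, 5.09 and 5.85 FPKM in control and 10.9, 17.6 and 14.9 FPKM with SFN. ATF5 rose by 1.29 ± 0.14 (adjusted p = 0.000153), or 1.15 in the 8-library fit. The ATF4 list of 16 held 3 higher and 7 lower genes at a median of -0.34; without SFN replicate 1, 2 or 3 the median was -0.14, -0.51 and -0.19, and without any 1 control library 1 gene of the list was higher. SFN replicate 2 alone had a median of 0.07. Aminoacyl-tRNA synthetases moved both ways, 7 higher and 8 lower of 20 tested (7 and 10 without SFN replicate 2). FARSA, of phenylalanyl-tRNA synthetase, rose (0.76 ± 0.056, adjusted p = 2.26e-05, and 0.78 in the 8-library fit), and CARS1, cysteinyl-tRNA synthetase, fell (-0.77 ± 0.071, adjusted p = 6.08e-05, and -0.80 in the 8-library fit).

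Wnt feedback and target genes were lower for the most part. Of 21 tested Wnt feedback and target genes 14 fell (66.7%) and 4 rose, at a median of -0.80, and 15 fell and 5 rose at -0.54 without SFN replicate 2. NOTUM, a secreted enzyme that removes the lipid from Wnt proteins, was at 53.5, 53.4 and 46.0 FPKM in control and 13.9, 8.69 and 8.30 FPKM with SFN. The fall in NOTUM was -2.23 ± 0.17 (adjusted p = 2.26e-05, 8-library fit -2.14). APCDD1, a membrane inhibitor of Wnt, was at 177, 182 and 166 FPKM in control and 61.5, 25.8 and 46.1 FPKM with SFN. For APCDD1 the change was -2.04 ± 0.24 (adjusted p = 0.000209) and -1.70 in the 8-library fit. DKK1, a secreted Wnt inhibitor, went the opposite way, at 2.27, 1.99 and 2.22 FPKM in control and 10.7, 18.9 and 12.2 FPKM with SFN. DKK1 rose by 2.21 ± 0.19 (adjusted p = 4.59e-05), or 1.98 in the 8-library fit. CCND1, cyclin D1, was at 425, 440.1 and 427 FPKM in control and 301, 171 and 293 FPKM with SFN. The fall in CCND1 was -0.80 ± 0.18 (adjusted p = 0.00608, 8-library fit -0.54).

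Immediate early factors and growth factor signalling were lower as well. The zinc-finger factor EGR1 was at 386, 366 and 338 FPKM in control and 125, 133 and 151 FPKM with SFN. For EGR1 the change was -1.41 ± 0.081 (adjusted p = 8.97e-06) and -1.39 in the 8-library fit. Its relative EGR2 was at 4.90, 4.78 and 2.91 FPKM in control and 0.36, 0.53 and 0.35 FPKM with SFN. EGR2 fell by 1.86 ± 0.15 (adjusted p = 3.20e-05), with -1.91 in the 8-library fit. EGR3, of the same family, was at 9.67, 8.33 and 5.70 FPKM in control and 1.70, 1.72 and 1.43 FPKM with SFN. The fall in EGR3 was -1.74 ± 0.15 (adjusted p = 5.05e-05, 8-library fit -1.77). No SFN library of the 3 genes reached the lowest control. Of 15 tested AP-1 and immediate early genes 10 fell and 1 rose in both fits, at a median of -0.71 (-0.74 without SFN replicate 2), while SFN replicate 2 alone had a median of -0.16, and 3 rose without SFN replicate 1. Of 11 tested IGF and FGF genes 9 fell in both fits and none rose (1 without SFN replicate 2). IGFBP3, an IGF binding protein and one of the largest losses in FPKM, was at 396, 400.3 and 356 FPKM in control and 179, 56.0 and 153 FPKM with SFN. For IGFBP3 the change was -1.72 ± 0.36 (adjusted p = 0.00357) and -1.21 in the 8-library fit. FGF19, a fibroblast growth factor with hormone action, was at 197, 193 and 183 FPKM in control and 132, 45.4 and 89.9 FPKM with SFN, and SFN replicate 2 was the lowest. FGF19 fell by 1.22 ± 0.30 (adjusted p = 0.00896), with -0.81 in the 8-library fit. IGF2, an insulin-like growth factor, fell (-1.17 ± 0.20, adjusted p = 0.00116, and -1.42 in the 8-library fit). ERK feedback genes held 6 lower and 1 higher of 13 tested (6 and 2 without SFN replicate 2), with SPRY2, a receptor signalling inhibitor, lower (-0.72 ± 0.12, adjusted p = 0.00113, and -0.60 in the 8-library fit) and the receptor EPHA2 higher (0.92 ± 0.18, adjusted p = 0.00271, and 0.66 in the 8-library fit).

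Ligands, receptors and adhesion genes were mixed. The 7 tested EGF family genes held 3 higher and 3 lower in both fits; their median of 0.43 became 0.03 without SFN replicate 2. AREG, the ligand amphiregulin, was at 2.18, 1.83 and 1.43 FPKM in control and 2.70, 5.41 and 5.52 FPKM with SFN and rose (0.94 ± 0.20, adjusted p = 0.00451, and 0.81 in the 8-library fit), while ERBB2, the receptor HER2, fell (-0.52 ± 0.11, adjusted p = 0.00428, and -0.63 in the 8-library fit). YAP and TEAD genes held 6 higher and 1 lower of 16 tested, and 8 higher and 4 lower without SFN replicate 2. NT5E, the ectonucleotidase CD73, was at 4.99, 4.81 and 5.55 FPKM in control and 9.59, 14.3 and 12.6 FPKM with SFN. The rise in NT5E was 1.09 ± 0.13 (adjusted p = 0.000179, 8-library fit 0.97). CDH1, E-cadherin, the adhesion protein of epithelia, was at 14.5, 15.4 and 12.7 FPKM in control and 6.51, 5.48 and 4.30 FPKM with SFN. For CDH1 the change was -1.25 ± 0.13 (adjusted p = 0.000121) and -1.26 in the 8-library fit. Its list of adhesion and mesenchymal genes held 5 higher and 5 lower of 14 tested; without control replicate 1 these were 3 and 3, and without control replicate 2, 3 were higher. ITGA2, a collagen-binding integrin subunit, rose (0.95 ± 0.14, adjusted p = 0.000635, and 0.86 in the 8-library fit), and ITGB4, the laminin-binding integrin of basal surfaces, fell (-0.99 ± 0.15, adjusted p = 0.000617, and -0.80 in the 8-library fit). VIL1, the brush-border protein villin, was at 3.84, 3.98 and 3.71 FPKM in control and 2.55, 1.46 and 1.56 FPKM with SFN (-0.78 ± 0.13, adjusted p = 0.00107, and -0.68 in the 8-library fit); of the 7 tested intestinal differentiation genes 1 rose and 2 fell (2 and 2 without SFN replicate 2). The summed colon epithelial markers were lower in the same libraries, as given above, and their part in these falls was not tested. Most of that sum was KRT8, KRT18 and KRT19. EPCAM, KRT8, KRT18 and CDX2 are given here after their values were seen. EPCAM overlapped between groups, at 133, 129.8 and 125 FPKM in control and 133, 122 and 144 FPKM with SFN. KRT8 was at 749, 738 and 735 FPKM in control and 772, 533 and 662 FPKM with SFN, with SFN replicate 1 above every control. KRT18 was at 916, 928 and 936 FPKM in control and 894, 650 and 772 FPKM with SFN. KRT18, KRT19, CDH1 and VIL1 had every SFN library below every control. CDX2 was at 15.3, 16.3 and 14.7 FPKM in control and 14.8, 12.3 and 11.3 FPKM with SFN, overlapping only in SFN replicate 1. The low markers KRT20, CDH17 and LGALS4 overlapped between groups.

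NF-kB and antigen presentation genes were higher. Of 14 tested NF-kB subunits and feedback targets 11 rose (78.6%) and none fell in both fits, at a median of 0.59 (0.47 without SFN replicate 2). BIRC3, an inhibitor of apoptosis and NF-kB target, was at 4.05, 3.15 and 4.71 FPKM in control and 7.53, 17.0 and 12.4 FPKM with SFN. BIRC3 rose by 1.37 ± 0.24 (adjusted p = 0.00139), or 1.12 in the 8-library fit. ICAM1, an adhesion molecule for leukocytes, was at 67.3, 66.8 and 70.6 FPKM in control and 117, 140.2 and 140.3 FPKM with SFN. The rise in ICAM1 was 0.94 ± 0.09 (adjusted p = 9.30e-05, 8-library fit 0.90). TRAF1, a signalling adaptor, was at 3.50, 3.91 and 4.03 FPKM in control and 5.94, 19.8 and 7.71 FPKM with SFN (1.17 ± 0.33, adjusted p = 0.0155, and 0.69 in the 8-library fit); SFN replicate 2 was far above the others, and the call was lost without control replicate 1 (adjusted p = 0.0501). Of 21 tested interferon and antigen presentation genes 13 rose and 3 fell (14 and 4 without SFN replicate 2). UBD, a ubiquitin-like protein induced by cytokines, was at 1.61, 1.79 and 1.67 FPKM in control and 11.6, 10.9 and 14.9 FPKM with SFN, and TAP2, a subunit of the peptide transporter for MHC class I, at 6.18, 6.26 and 6.74 FPKM in control and 12.9, 18.5 and 15.8 FPKM with SFN. Both rose without overlap, UBD (2.31 ± 0.13, adjusted p = 8.69e-06, and 2.40 in the 8-library fit) and TAP2 (1.17 ± 0.11, adjusted p = 6.24e-05, and 1.05 in the 8-library fit). IFI27, an interferon-induced gene, fell (-1.07 ± 0.12, adjusted p = 0.000157, and -1.13 in the 8-library fit). The pan-leukocyte marker PTPRC was at 0 in all 6 libraries. Cytokines were fewer and less even: 3 of 12 tested rose (25%) and 2 fell (16.7%), against 27.5% and 22.5% of all tested genes. Without SFN replicate 2, 5 rose and 3 fell, with 5 higher without SFN replicate 1 and 4 lower without SFN replicate 3. LIF, an IL-6 family cytokine, was at 45.3, 42.7 and 45.6 FPKM in control and 20.2, 23.8 and 22.1 FPKM with SFN. For LIF the change was -0.99 ± 0.085 (adjusted p = 4.42e-05) and -1.04 in the 8-library fit.

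Most DNA replication genes were higher, and G1 genes moved both ways with more higher than lower. CCND1, cyclin D1, was lower, as given above. Of 19 tested G1 genes 11 rose and 4 fell (12 and 5 without SFN replicate 2). CDC25A, the phosphatase that activates cyclin-dependent kinases, was at 7.16, 7.29 and 8.76 FPKM in control and 14.2, 21.6 and 15.5 FPKM with SFN. CDC25A rose by 1.03 ± 0.14 (adjusted p = 0.000353), or 0.86 in the 8-library fit. The kinase inhibitors moved apart: CDKN2B rose, at 1.98, 1.63 and 2.11 FPKM in control and 4.54, 6.38 and 5.54 FPKM with SFN (1.15 ± 0.13, adjusted p = 0.000143, and 1.05 in the 8-library fit), and CDKN1C fell, at 16.3, 16.0 and 11.3 FPKM in control and 5.16, 2.78 and 3.94 FPKM with SFN. The fall in CDKN1C was -1.66 ± 0.19 (adjusted p = 0.000179, 8-library fit -1.47). CDKN1A, the inhibitor p21, was at 68.1, 68.4 and 67.3 FPKM in control and 46.5, 60.9 and 42.6 FPKM with SFN, with each SFN library below the controls (-0.45 ± 0.13, adjusted p = 0.0164, and -0.60 in the 8-library fit), and it lost its call without SFN replicate 3 (adjusted p = 0.055). Of 32 tested DNA replication genes 24 rose (75%) and 1 fell, at a median of 0.53. Without SFN replicate 2, 25 rose and 1 fell, at a median of 0.46. ORC6 of the origin recognition complex was highest in SFN replicate 2, at 4.2, 4.59 and 5.63 FPKM in control and 8.24, 18.0 and 10.6 FPKM with SFN. For ORC6 the change was 1.13 ± 0.22 (adjusted p = 0.00268) and 0.84 in the 8-library fit. RFC3, a clamp loader subunit, was at 14.0, 12.3 and 17.4 FPKM in control and 27.5, 32.9 and 37.2 FPKM with SFN. RFC3 rose by 1.11 ± 0.13 (adjusted p = 0.000212), or 1.10 in the 8-library fit. DNA repair genes held 13 higher and none lower of 19 tested (14 and none without SFN replicate 2), with XRCC2, a factor of homologous recombination, at 2.24, 2.18 and 2.97 FPKM in control and 4.55, 7.26 and 5.93 FPKM with SFN. The rise in XRCC2 was 0.99 ± 0.15 (adjusted p = 0.000646, 8-library fit 0.85).

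Mitosis genes depended on SFN replicate 2. With all libraries 8 of 28 tested rose (28.6%, near the 27.5% of all tested genes) and none fell, at a median of 0.24. Without that library 18 rose and none fell, at a median of 0.34, and 30.0% of all tested genes were higher in that fit. Without control replicate 1, control replicate 2 or SFN replicate 3, 5 rose, and the median without SFN replicate 3 was 0.10. UBE2C, the ubiquitin-conjugating enzyme of mitotic exit, was at 98.3, 99.8 and 108 FPKM in control and 186, 117 and 212 FPKM with SFN. For UBE2C the change was 0.70 ± 0.18 (adjusted p = 0.0108) and 0.95 in the 8-library fit. The mitotic kinase AURKA was at 48.2, 47.0 and 52.0 FPKM in control and 64.4, 25.9 and 75.9 FPKM with SFN and the kinase PLK1 at 23.9, 24.8 and 25.0 FPKM in control and 30.7, 12.2 and 34.5 FPKM with SFN, so that for both SFN replicate 2 was the lowest of the 6 libraries and SFN replicates 1 and 3 the highest. AURKA changed by 0.04 with all libraries (adjusted p = 0.93) and by 0.50 without SFN replicate 2 (adjusted p = 0.000474), and PLK1 by -0.06 (adjusted p = 0.885) and 0.39 (adjusted p = 0.000754).

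Stress and death genes linked to p53 were lower more often than higher, 10 of 23 tested against 3, and 11 against 4 without SFN replicate 2. The list goes by known targets, and whether p53 acted on them in these cells was not tested. BTG2, an antiproliferative p53 target, was at 14.5, 15.9 and 10.8 FPKM in control and 2.51, 3.86 and 1.82 FPKM with SFN. BTG2 fell by 2.0 ± 0.20 (adjusted p = 8.62e-05), with -2.21 in the 8-library fit. PMAIP1, the BH3-only protein NOXA, rose, at 10.96, 9.82 and 11.5 FPKM in control and 17.3, 27.7 and 24.4 FPKM with SFN. The rise in PMAIP1 was 1.02 ± 0.15 (adjusted p = 0.000556, 8-library fit 0.88). GADD45A, a DNA-damage inducible gene, was at 24.6, 24.6 and 26.4 FPKM in control and 14.5, 46.5 and 13.5 FPKM with SFN, and DDIT3, the stress factor CHOP, at 26.1, 27.5 and 24.7 FPKM in control and 15.2, 45.6 and 15.1 FPKM with SFN. In both, SFN replicate 2 was the highest of the 6 libraries while SFN replicates 1 and 3 were the lowest. GADD45A changed by -0.25 (adjusted p = 0.597) and, without SFN replicate 2, by -0.80 (adjusted p = 2.67e-05); DDIT3 changed by -0.24 (adjusted p = 0.592) and -0.75 (adjusted p = 0.000387). IL11, a cytokine of the IL-6 family, showed the same arrangement at 2.63, 2.67 and 2.52 FPKM in control and 1.96, 13.5 and 1.64 FPKM with SFN (change 0.42, adjusted p = 0.531, and -0.37, adjusted p = 0.0412). Among BCL2 family and death regulators 6 of 19 tested rose (31.6%) and 1 fell (5.26%), against 27.5% and 22.5% of all tested genes. Without SFN replicate 2, 5 were higher and 4 lower, and 3 were higher without control replicate 2. BMF, a BH3-only protein, was at 4.0, 4.31 and 3.34 FPKM in control and 0.82, 0.79 and 0.60 FPKM with SFN (-1.49 ± 0.10, adjusted p = 1.49e-05, and -1.51 in the 8-library fit), and BID, another, at 10.9, 11.1 and 10.0 FPKM in control and 16.9, 16.9 and 17.6 FPKM with SFN. For BID the change was 0.64 ± 0.062 (adjusted p = 7.99e-05) and 0.65 in the 8-library fit.

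**Figure D4:**
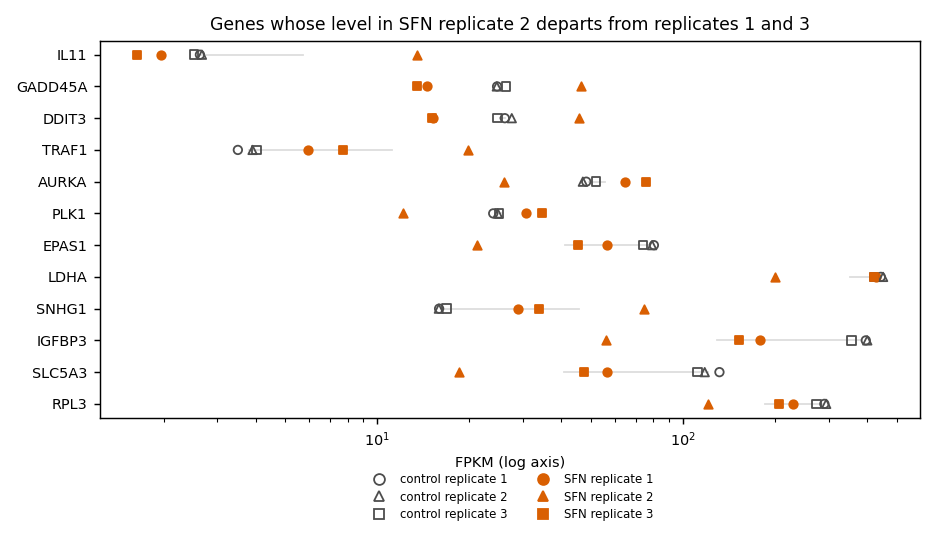
FPKM on a log axis of 12 genes in which SFN replicate 2 (filled triangles) departs from SFN replicates 1 and 3 (filled circles and squares), with control libraries as open symbols and a line joining the group means. For IL11, GADD45A, DDIT3, AURKA and PLK1 it lies on the other side of the controls; for LDHA it lies below 5 other libraries that overlap, and for the remaining 6 genes it lies further from control on the same side.

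Histone deacetylases, which sulforaphane has been described to inhibit as enzymes, held 6 lower and 3 higher of 14 tested (8 and 2 without SFN replicate 2); 1 was higher with mitochondrial transcripts left out or without control replicate 1 and none without control replicate 2. HDAC6, a cytoplasmic deacetylase of tubulin, was at 4.83, 4.65 and 4.2 FPKM in control and 1.97, 1.38 and 1.68 FPKM with SFN. HDAC6 fell by 1.06 ± 0.094 (adjusted p = 5.11e-05), with -0.98 in the 8-library fit. HDAC5, a class IIa member, was at 9.92, 10.3 and 8.56 FPKM in control and 4.27, 4.39 and 3.72 FPKM with SFN. The fall in HDAC5 was -1.04 ± 0.086 (adjusted p = 3.60e-05, 8-library fit -1.08). HDAC1, a nuclear class I member, was at 34.1, 34.2 and 33.8 FPKM in control and 33.3, 29.9 and 30.2 FPKM with SFN and did not pass the test (change -0.13, adjusted p = 0.106, and -0.10 in the 8-library fit). HDAC1 was called lower under 7 of 18 alternative settings, among them with mitochondrial transcripts left out (adjusted p = 0.0294) and without SFN replicate 1 (adjusted p = 0.0336). Tubulin genes held 7 higher and 1 lower of 11 tested (7 and 2 without SFN replicate 2). TUBA1B, an alpha-tubulin, was at 456, 461 and 498 FPKM in control and 738, 967 and 806 FPKM with SFN (0.82 ± 0.10, adjusted p = 0.000192, and 0.71 in the 8-library fit), and TUBB, a beta-tubulin, at 233, 239.7 and 248 FPKM in control and 306, 329.7 and 318 FPKM with SFN. For TUBB the change was 0.40 ± 0.057 (adjusted p = 0.000501) and 0.38 in the 8-library fit. Tubulin genes are alike in sequence, so the split of reads among them is uncertain. Osmolyte transport fell in 3 of 4 tested genes in both fits, with SLC5A3, the inositol transporter, at 132, 118 and 112 FPKM in control and 56.4, 18.5 and 47.3 FPKM with SFN. SLC5A3 fell by 1.68 ± 0.33 (adjusted p = 0.0028), with -1.20 in the 8-library fit. Host genes of small nucleolar RNAs and other long noncoding RNAs held 10 higher and 1 lower of 18 tested in both fits. SNHG1, a snoRNA host, was highest in SFN replicate 2, at 15.9, 15.9 and 16.9 FPKM in control and 28.8, 74.3 and 33.9 FPKM with SFN. The rise in SNHG1 was 1.31 ± 0.28 (adjusted p = 0.00401, 8-library fit 0.91). RPL3, a large-subunit ribosomal protein with close copies in the genome, was lowest there, at 289.8, 294 and 273 FPKM in control and 228, 120.2 and 207 FPKM with SFN. For RPL3 the change was -0.68 ± 0.20 (adjusted p = 0.0185) and -0.39 in the 8-library fit. It lost its call without control replicate 1 (adjusted p = 0.0537) or control replicate 2 (adjusted p = 0.0555).

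The largest changes among genes with a symbol, averaging 5 FPKM or more, called in both fits and without overlap, included genes of the lists and genes outside them. LINC00973, of the long noncoding RNA list, was at 1.28, 1.49 and 1.77 FPKM in control and 5.79, 23.8 and 10.9 FPKM with SFN, a large increase of uneven size. LINC00973 rose by 2.33 ± 0.37 (adjusted p = 0.000846), or 1.84 in the 8-library fit. PI3, the elastase inhibitor elafin, was at 1.68, 3.18 and 2.37 FPKM in control and 8.24, 37.1 and 11.1 FPKM with SFN, again with SFN replicate 2 the highest. The rise in PI3 was 2.27 ± 0.44 (adjusted p = 0.00267, 8-library fit 1.66). ITM2C, a transmembrane protein, and KLK10, a kallikrein-related peptidase, rose by 1.80 and 1.74 (1.55 and 1.45 in the 8-library fit), and SFN replicate 2 was highest for both. KRTAP3-1, a keratin-associated protein, had its highest value in SFN replicate 3, at 2.31, 3.37 and 2.85 FPKM in control and 16.8, 8.73 and 29.8 FPKM with SFN. For KRTAP3-1 the change was 2.19 ± 0.35 (adjusted p = 0.000929) and 2.62 in the 8-library fit. IGHE, an immunoglobulin heavy chain constant gene, was at 0.5, 0.46 and 0.55 FPKM in control and 1.48, 21.6 and 3.86 FPKM with SFN. IGHE rose by 2.11 ± 0.63 (adjusted p = 0.0201), or 1.21 in the 8-library fit. Leaving out control replicate 1 or 2 ended the call (adjusted p = 0.0535 and 0.0546). TOMM6, a small subunit of the mitochondrial import pore, varied within both groups, at 10.5, 6.71 and 13.1 FPKM in control and 55.3, 43.3 and 30.3 FPKM with SFN. The rise in TOMM6 was 1.99 ± 0.45 (adjusted p = 0.00542, 8-library fit 1.96). SENP3-EIF4A1 is a read-through transcript and was more uneven, at 26.1, 37.2 and 54.2 FPKM in control and 76.4, 148 and 303 FPKM with SFN. For SENP3-EIF4A1 the change was 1.98 ± 0.44 (adjusted p = 0.00501) and 1.99 in the 8-library fit. The read-through shares its exons with SENP3 and EIF4A1, so its level is uncertain.

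**Figure D5:**
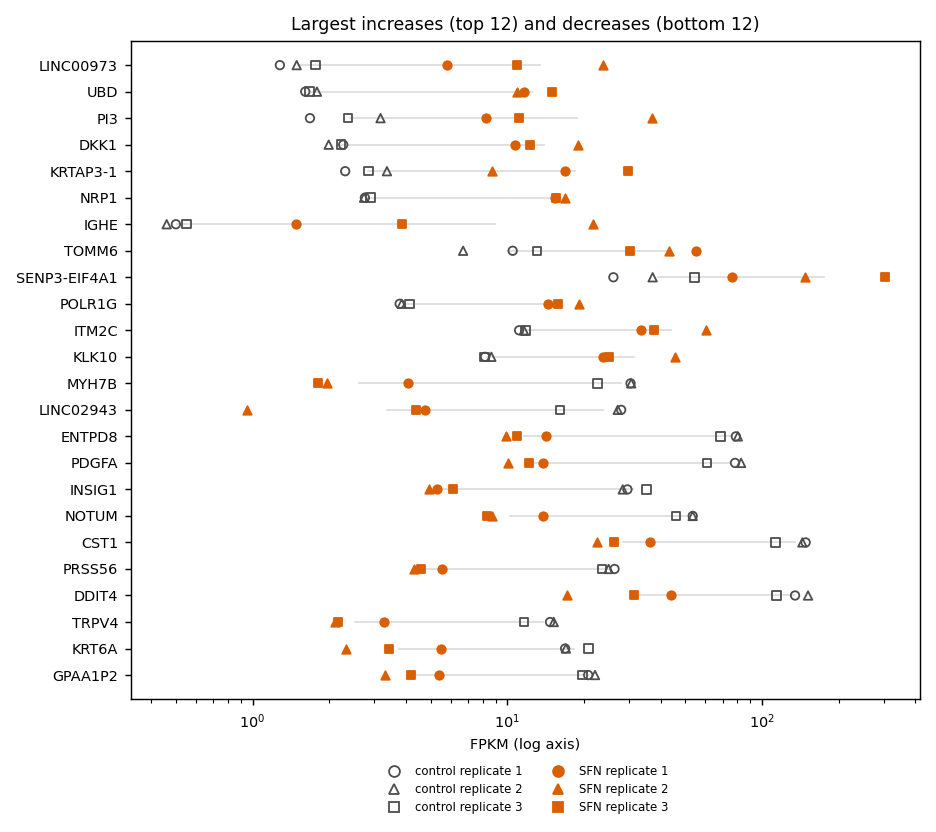
FPKM on a log axis of the 12 genes with a symbol and the largest increases (top) and the 12 with the largest decreases (bottom) on the log2(FPKM + 1) scale, open grey symbols for control and filled orange symbols for SFN replicates 1 (circles), 2 (triangles) and 3 (squares), lines joining group means. NRP1, UBD and PRSS56 have tight groups, while IGHE, PI3 and LINC00973 are spread with SFN replicate 2 highest.

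Among the named decreases MYH7B, a myosin heavy chain, had the largest, at 30.5, 30.7 and 22.6 FPKM in control and 4.06, 1.96 and 1.80 FPKM with SFN. MYH7B fell by 3.04 ± 0.22 (adjusted p = 2.21e-05), with -2.93 in the 8-library fit. ENTPD8, an ectonucleotidase that hydrolyses extracellular ATP, was at 79.0, 80.4 and 68.6 FPKM in control and 14.2, 9.85 and 10.9 FPKM with SFN. The fall in ENTPD8 was -2.62 ± 0.13 (adjusted p = 6.12e-06, 8-library fit -2.51). CST1, a secreted cystatin that inhibits cysteine proteases, was at 148, 144 and 113 FPKM in control and 36.4, 22.5 and 26.3 FPKM with SFN. For CST1 the change was -2.23 ± 0.18 (adjusted p = 3.21e-05) and -2.08 in the 8-library fit. PRSS56, a serine protease, was at 26.4, 25.0 and 23.5 FPKM in control and 5.54, 4.31 and 4.57 FPKM with SFN. PRSS56 fell by 2.16 ± 0.087 (adjusted p = 2.97e-06), with -2.10 in the 8-library fit. TRPV4, a calcium-permeable cation channel, and LINC02943, a long noncoding RNA, fell by 2.09 and 2.62 (-2.0 and -2.11 in the 8-library fit). GPAA1P2 fell by 2.06 (-1.92 in the 8-library fit) and is a pseudogene, so its level is uncertain. Among genes called in both fits the largest loss in FPKM was that of KRT5, a keratin of the basal layer of stratified epithelia, at 846, 837 and 943 FPKM in control and 357, 173 and 229.8 FPKM with SFN. The fall in KRT5 was -1.85 ± 0.21 (adjusted p = 0.000168, 8-library fit -1.61). The mitochondrially encoded cytochrome c oxidase subunits lost more between group means, as MT-CO1 fell by 1419.5 FPKM and MT-CO2 fell by 1260.1 FPKM, and both were called with all libraries but not without SFN replicate 2. KRT6A, another stratified-epithelium keratin, was at 16.9, 17.0 and 20.8 FPKM in control and 5.49, 2.33 and 3.42 FPKM with SFN (-2.07 ± 0.21, adjusted p = 9.00e-05, and -1.84 in the 8-library fit), and KRT19, a keratin of simple epithelia, at 733, 720.0 and 767 FPKM in control and 560.0, 442 and 528 FPKM with SFN. For KRT19 the change was -0.54 ± 0.084 (adjusted p = 0.000813) and -0.44 in the 8-library fit. ACTN4, the actin crosslinker alpha-actinin 4, was at 483, 491 and 472 FPKM in control and 304, 189 and 259 FPKM with SFN (-0.97 ± 0.14, adjusted p = 0.000588, and -0.78 in the 8-library fit), and NSMF, a synapse-to-nucleus signalling protein, fell in all SFN libraries but least in replicate 2, at 706, 717 and 666 FPKM in control and 382, 571 and 352 FPKM with SFN. NSMF fell by 0.71 ± 0.15 (adjusted p = 0.00451), with -0.92 in the 8-library fit. Its change was -0.46 after correction for GC content and length. Gains in FPKM went to the chromatin protein HMGA1, at 359.7, 378 and 376 FPKM in control and 630.0, 739 and 636 FPKM with SFN (0.84 ± 0.081, adjusted p = 7.21e-05, and 0.77 in the 8-library fit), to the actin-binding PFN1, at 512, 511 and 530.0 FPKM in control and 775, 673 and 774 FPKM with SFN (0.51 ± 0.073, adjusted p = 0.000501, and 0.58 in the 8-library fit), and to NGFR, the neurotrophin receptor p75, at 145, 147 and 154 FPKM in control and 321, 229.8 and 301 FPKM with SFN. The rise in NGFR was 0.91 ± 0.11 (adjusted p = 0.000224, 8-library fit 1.06). CDRT4 was the 1 gene with a symbol at 1 FPKM or more in every control and at 0.1 FPKM or less in every SFN library; it was singled out after its values were seen, at 2.24, 2.15 and 1.82 FPKM in control and at 0.04, 0.02 and 0 FPKM with SFN.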

How the data were processed

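RNA from SW480 cells was sequenced in 9 poly(A) libraries, 3 each for untreated hypoxia, SFN and SFN+5-FU. The authors deposited 1 table of FPKM with 2 decimals for 41041 gene IDs. The submitters' processing notes name fastp, StringTie and edgeR without versions. For the aligner, genome build, annotation and strand setting, the entry is: not given in the sources used here. Fragment counts were not analysed here, so depth is unknown. Libraries were grouped by their labels, and no column belonged to another sample.

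A name table matched 41002 IDs, of which 29784 have a symbol. The 12662 genes with a mean of at least 1 FPKM over 9 libraries (11994 with a symbol) were fitted as log2(FPKM + 1) in limma 3.58.1 (R 4.3.3), with 3 group means and moderated variances with a trend on mean level. Adjusted p-values are Benjamini-Hochberg over the 12662 genes, two-sided, with a threshold of 0.05. The contrast was SFN minus control, refitted without SFN replicate 2. No group or list was tested as a set. The code was tested on simulated data.

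Named genes were the 12 largest increases and 12 largest decreases among genes with a symbol and a mean of at least 5 FPKM that were called in both fits and did not overlap, the 8 largest gains and 8 largest losses in FPKM, the 3 largest called changes of each of 54 lists (or its most abundant gene where none was called), 6 list genes that changed most without SFN replicate 2, and 18 genes chosen for the study's title or the known actions of sulforaphane. Members and lists were chosen with earlier results of these data known, and their agreement with a direction seen before is not independent evidence. The text describes some of the lists and some of the named genes; others are not reported here.

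Promoter windows came from RefSeq on GRCh38.p14. GC content and length, used in 1 alternative, came from a reference annotation matched to 12504 tested genes (98.8%). Each result was recomputed under 18 alternatives: low-value filters, pseudocounts, scalings, library weights, the 6 compared libraries only, a replicate block, GC correction, and each control and SFN library left out.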

Additional observations from a re-analysis of the deposited data

How the results depend on the processing

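Replicates were few, depth was unknown, and values of low genes are limited by the 2 decimals of the deposited FPKM. Called genes numbered 6333, and 4845 to 7200 with 1 library left out, lowest without control replicate 1 and highest without SFN replicate 2. They numbered 8829 with library weights, 5166 on the 6 compared libraries and 6447 after correction for GC content and length. Testing only genes averaging 5 FPKM or more left 6939 genes, of which 3888 were called, 1399 of them lower and 310.0 at least 2-fold. Genes at least 2-fold numbered 1083 with a pseudocount of 0.1 and 141 with a pseudocount of 5, against 593, and 514 to 795 with 1 library left out. Without a filter 46.4% of calls were higher, with genes of 5 FPKM or more 64%, against 54.9%. Scaling and filters moved the median of all genes by at most 0.07. Of the 54 lists, 25 to 30 had a median below 0 under the alternatives, against 26. Of 195 named genes, 169 kept their direction and side of the threshold in all 18 alternatives.

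Direction changed for these genes, none called with all libraries, and the cause was not tested. AURKA was -0.030 under median-ratio scaling, -0.032 with mitochondrial transcripts left out, -0.082 under quantile normalization, -0.0038 after GC and length correction, and -0.25 to 0.50 over the fits that left out 1 library. MTOR was -0.014 under median-ratio scaling, -0.015 with mitochondrial transcripts left out, -0.049 after GC and length correction, and -0.014 to 0.15 with 1 library left out. HIF1A was -0.013 under quantile normalization and -0.10 after GC and length correction. With library weights IL11 was -0.38, PLK1 0.43 and HMOX1 -0.10. With 1 library left out IL11 ran from -0.37 to 0.86, GADD45A from -0.80 to 0.052, DDIT3 from -0.75 to 0.018, PLK1 from -0.32 to 0.39, NFE2L2 from -0.049 to 0.37 and HMOX1 from -0.10 to 0.20.

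Replicate numbers are shared by the groups. Deviations of control and SFN libraries with the same number correlated over genes at 0.10, -0.07 and 0.11 for numbers 1, 2 and 3. Not every library correlated best with its own number, so the libraries were not treated as pairs. A fit with the replicate block called 6038 genes, and 6218 with the block and the GC and length correction, where AURKA, HIF1A and MTOR were -0.0038, -0.10 and -0.049 as without the block.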
